A study of Mus musculus with 8 samples.

Results

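Guca2a, Guca2b, Gucy2c and Prkg2 encode the parts of one signaling route of the gut lining, and their transcripts were followed here through the epithelium of the mouse embryonic gut. The genes were taken by name: Guca2a (guanylin), Guca2b (uroguanylin), Gucy2c (their receptor) and Prkg2 (a kinase acting after the receptor), 4 of the 23393 genes of the table. All 4 also passed the filter on low values, a minimum of 1 FPKM in 2 or more libraries that 12894 genes met. FPKM is the number of sequenced fragments per kilobase of transcript, scaled to library size, so levels of different genes can be set side by side per length.

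Guanylin and uroguanylin are small peptides released into the gut lumen. They bind guanylate cyclase C, the product of Gucy2c, which sits in the apical membrane of intestinal epithelial cells and makes cyclic GMP when occupied. In the adult intestine cyclic GMP activates the membrane-bound kinase cGKII, the product of Prkg2, which is known to open the chloride channel CFTR, while cyclic GMP signaling also restrains sodium uptake by the exchanger NHE3, so that salt and water enter the lumen. Heat-stable enterotoxins of diarrheal bacteria act by mimicking these peptides.

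The libraries were made from poly(A) RNA of epithelium at E16.5, late in gestation, with 2 libraries each of forestomach (squamous stomach), hindstomach (glandular stomach), proximal small intestine (called intestine here) and colon, 8 in all. Per the labels the embryos carried ShhCre and R26YFP/+, which mark epithelium, no treatment was given, and all groups share this genotype. The forestomach epithelium was loosened with Dispase and peeled off by hand, and the other tissues were shaken in EDTA, more concentrated for the hindstomach, so isolation and tissue cannot be told apart. The labels number the libraries as replicates and do not say if different embryos were used, so the p-values reflect the spread among these libraries alone, and this may be technical. In such bulk samples fewer cells of a type and less RNA per cell cannot be told apart.

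Summed FPKM ran from 328490 to 378497 in 7 libraries and was 545227 in the library labelled forestomach replicate 1, which stood apart and whose markers went against its label. Its 14 gastric glandular markers summed to 168634 FPKM, led by the pepsinogen gene Pgc at 97970, against 2517 in forestomach replicate 2 and 25294 and 32035 in the hindstomach. Its 12 squamous markers summed to 2043 FPKM against 53497 in forestomach replicate 2, and its 13 mesenchyme and smooth muscle markers to 4595 against 97.5. Calls, list counts and ranks of likeness that use the forestomach are therefore also given without that library. Epithelial markers (Epcam, Cdh1, Krt8, Krt18, Krt19 and Cldn7) were all above 1 FPKM in every library, but uneven. Cldn7 stood at 2.21 FPKM in forestomach replicate 1 and at 326 in intestine replicate 2. In replicates 1 and 2, 8 pancreatic acinar markers summed to 3571 and 969 FPKM in the hindstomach, 2311 and 400 in the intestine and 1471 and 440 in the colon. In the forestomach these sums were 427 and 1.89 FPKM. The files do not give read numbers, but the steps between low values placed 4 libraries (forestomach 1, hindstomach 1, intestine 1 and colon 2) at 0.852 to 1 of the depth of intestine replicate 1, and the other 4 at 0.426 to 0.495, each uncertain by a factor of 2.

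Guca2a lies on chromosome 4 from 119637704 to 119639471 on the plus strand (GRCm38, GENCODE M21), and Guca2b from 119656607 to 119658954 on the minus strand, so both ligand genes are transcribed toward each other across 17135 bases that hold no other annotated gene. Each has 3 exons. Gucy2c lies on chromosome 6 from 136697284 to 136781765 and Prkg2 on chromosome 5 from 98929773 to 99037351, both on the minus strand, with up to 27 and 19 exons in an annotated transcript. All 4 are protein coding, and only the span of Prkg2 overlaps another annotated gene, the pseudogene Gm3470, so reads of the 2 may have been shared. The 150 bases before the RefSeq start of each ligand gene, which differs a little from the GENCODE start, are shown because the ligands are neighbors that were high in the same tissues and yet differed in their order between intestine and colon (RefSeq, GRCm38.p6, chr4:119637582-119637731 plus strand and chr4:119658946-119659095 minus strand). Capitals mark matches to AGATAA or to its reverse complement TTATCT, the letters known from GATA factor sites.

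Guca2a: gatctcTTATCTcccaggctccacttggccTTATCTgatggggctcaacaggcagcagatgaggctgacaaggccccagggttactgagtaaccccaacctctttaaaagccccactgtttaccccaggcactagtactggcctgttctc

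Guca2b: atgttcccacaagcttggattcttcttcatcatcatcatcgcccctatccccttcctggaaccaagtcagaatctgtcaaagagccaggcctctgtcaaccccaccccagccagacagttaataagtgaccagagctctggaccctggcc

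RefSeq windows were matched for 2 of the 4 genes, both ligands. The window of 250 bases before the Guca2a start held TTATCT in 2 places, from base -144 to -139 and from -120 to -115 counted from the start, and the Guca2b window held none. Of 32851 promoter windows of that length, 9.99% held AGATAA on either strand and 0.938% held it more than once. AGATAA was chosen after the sequences were seen. Neither window held TTTAT followed by any base and G, letters like those of CDX sites (9.81% of windows), GTTAATNAT, like HNF1 sites (0.737%), or CAAAGTCCA, like HNF4 sites (0.384%), on either strand, so no match overlapped another. These matches describe letters only.

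All 4 genes were high in the intestine and colon, far lower in the hindstomach, and near 0 in the forestomach. Guanylin was highest in the colon, uroguanylin and the kinase gene were highest in the intestine, and the receptor gene stood at similar levels in both parts of the bowel. In the intestine the order by mean level was Gucy2c, Guca2b, Guca2a and Prkg2. In the colon it was Guca2a, Gucy2c, Guca2b and Prkg2.

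**Figure D1:**
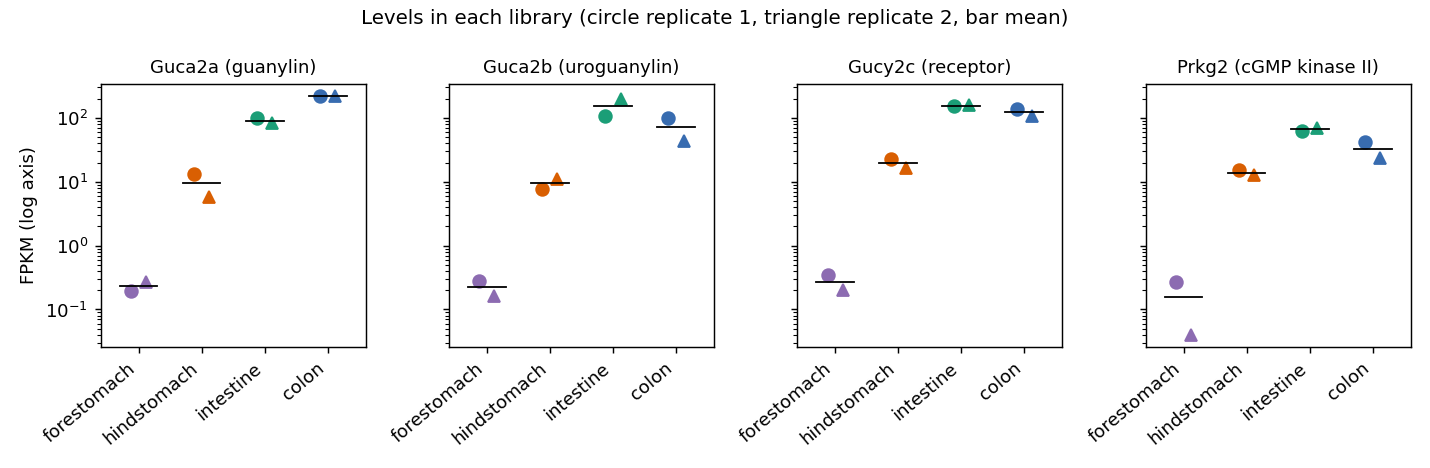
FPKM on a log axis for the 4 genes in the 4 tissues, where a circle is replicate 1, a triangle replicate 2 and a bar their mean. Every intestine and colon library lies above every stomach library for each gene, and no forestomach library reaches 0.35 FPKM.

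Guca2a, the guanylin gene, stood at 222 and 223 FPKM in colon replicates 1 and 2, at 98.9 and 82.9 in the intestine, at 13.1 and 5.74 in the hindstomach and at 0.193 and 0.272 in the forestomach. The 4 tissues did not overlap. In the colon it ranked 214th and 189th from the top of all genes, and in the intestine 570th and 707th. The colon pair was tight (222.7 ± 0.620 FPKM, mean ± SD, n = 2), while the hindstomach libraries differed by more than the level of the lower one (9.43 ± 5.22).

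Guca2b, the uroguanylin gene, stood at 108 and 199 FPKM in intestine replicates 1 and 2 and at 98.7 and 42.9 in colon replicates 1 and 2. It was at 7.66 and 11.2 FPKM in the hindstomach and at 0.284 and 0.165 in the forestomach. Its replicates spread most of the 4 genes in the bowel, with 153 ± 64.1 FPKM in the intestine and 70.8 ± 39.5 in the colon (mean ± SD, n = 2). Both intestine libraries were above both colon libraries, narrowly so for intestine replicate 1 and colon replicate 1.

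Gucy2c, which encodes the receptor guanylate cyclase C, stood at 155 and 157 FPKM in the intestine, at 137 and 108 in the colon, at 22.6 and 16.6 in the hindstomach and at 0.345 and 0.199 in the forestomach. It ranked between 354th and 449th of all genes in the 4 bowel libraries. Its intestine libraries lay close together (156 ± 0.860 FPKM, mean ± SD, n = 2).

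Prkg2, which encodes the cyclic GMP kinase, stood at 62.4 and 70.3 FPKM in the intestine and at 42.3 and 23.4 in colon replicates 1 and 2. In the hindstomach it was at 15.1 and 12.5 FPKM and in the forestomach at 0.274 and 0.0401. Its hindstomach level came closest to the bowel of the 4 genes: the lower colon library exceeded the higher hindstomach library by less than the difference between the colon libraries.

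The comparison of small intestine with glandular stomach asked how far the route is part of what separates the 2 epithelia. All 4 genes were higher in the intestine, where 2.55% of the 12894 genes tested were called higher and 2.47% lower. A call required a Benjamini-Hochberg adjusted p under 0.05 over all genes and at least 2-fold change on the log2(FPKM + 1) scale, on which the change of low genes is understated. Guca2b rose by 3.84 ± 0.47 (log2 fold change ± SE, 14.3-fold, limma adjusted p = 0.0163) and Guca2a by 3.23 ± 0.35 (9.38-fold, adjusted p = 0.0127). Gucy2c rose by 2.94 ± 0.22 (7.69-fold, adjusted p = 0.00634) and Prkg2 by 2.19 ± 0.31 (4.55-fold, adjusted p = 0.0217). Their median was 3.09 against -0.25 over all genes tested, and Guca2b had the 61st largest absolute change of all genes.

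With forestomach replicate 1 left out all 4 were called, among 7.42% of genes called higher and 9.96% lower. Leaving out a library of the tissues compared mattered more. Guca2a and Gucy2c stayed called without hindstomach replicate 1 (adjusted p = 0.042 and 0.0475) and lost the call without hindstomach replicate 2 or either intestine library, settings in which no gene of the whole table was called by limma (1643, 1878 and 1386 genes at an unadjusted p under 0.05). Guca2b and Prkg2 lost it without any of the 4 (adjusted p from 0.0898 to 0.174 and from 0.14 to 0.221).

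Enterocyte markers were lower in the hindstomach as well. The hindstomach mean was 10.4% of the intestine mean for Guca2a, 6.16% for Guca2b, 12.6% for Gucy2c and 20.8% for Prkg2. Over 12 enterocyte markers it ran from 7.1% for Enpep to 28.4% for Anpep, with a median of 17.8%. Markers of other intestinal cell types were taken only at a mean of 1 FPKM or more in the intestine, a bar not set for enterocyte markers. They had medians of 33.7% over 10 goblet cell markers (from 25.0% to 542%) and 59.4% over 12 enteroendocrine markers (from 15.7% to 137%). The low ends of both lists lay within the enterocyte range. Over the 5021 genes with at least 10 FPKM in the intestine the median was 102%. Enterocyte markers were present in both hindstomach libraries, with 11 of 12 at 1 FPKM or more and sums of 4286 and 4958 FPKM, against 22545 and 32733 in the intestine. Whether intestinal epithelium in the hindstomach preparations bears on the hindstomach levels of the 4 genes was not tested.

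**Figure D2:**
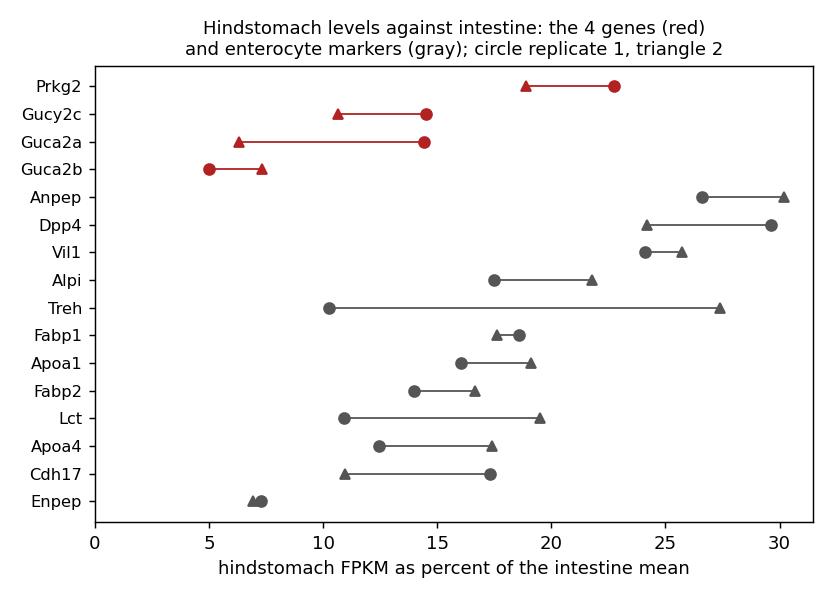
FPKM in hindstomach replicate 1 (circles) and replicate 2 (triangles) as a percentage of the mean of the 2 intestine libraries, for the 4 genes (red) and 12 enterocyte markers (gray). The means of the 4 genes, from 6.16% to 20.8%, lie beside those of the markers, from 7.1% to 28.4%.

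Colon and hindstomach were compared to see whether the distal bowel differs from the stomach in the same genes. Guca2a rose in the colon by 4.52 ± 0.35 (limma adjusted p = 0.00521, 22.9-fold) and Gucy2c by 2.58 ± 0.22 (adjusted p = 0.00747, 6.0-fold), where 1.07% of all genes tested were called higher and 0.434% lower. Guca2a had the 34th largest absolute change of all genes in this comparison. Guca2b was 2.68 ± 0.47 higher with an adjusted p = 0.0627, and Prkg2 1.14 ± 0.31 higher with an adjusted p = 0.190, so neither passed the threshold. The forestomach pair enters the fit although it is not compared, and with either of its libraries left out Guca2b was called as well. Guca2b itself lay close together in that pair, at 0.284 and 0.165 FPKM. The reason for the gained call was not tested. Guca2a lost its call without either colon library, with log2 fold changes from 3.99 to 5.05 when any 1 library was left out. Gucy2c lost it without either colon or either hindstomach library, with log2 fold changes from 2.37 to 2.80. In these settings calls over the whole table fell sharply too, so the losses are not particular to these genes. With forestomach replicate 1 left out 4.49% of genes were called higher and 3.1% lower.

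Within the bowel no member was called between colon and intestine by limma, although 3 of the 4 had an unadjusted p under 0.05. In this comparison 0.38% of all genes were called higher in the colon and 0% lower, with 1829 at an unadjusted p under 0.05. With forestomach replicate 1 left out, when 2.5% were called higher and 0.04% lower, still none of the 4 was called (adjusted p from 0.101 to 0.211). Guca2a was 1.29 higher in the colon on the log2 scale (95% interval from 0.44 to 2.14, adjusted p = 0.29). Guca2b was lower by 1.16, with a log2 fold change of -1.16 (from -2.30 to -0.01, adjusted p = 0.351). Prkg2 had a log2 fold change of -1.05 (from -1.79 to -0.30, adjusted p = 0.309). For Gucy2c it was -0.36, with an interval from -0.89 to 0.17 (adjusted p = 0.48), so that a change of either sign remains possible within it. With 1 library of these tissues left out the value ran from -1.75 to -0.56 for Guca2b, from -1.46 to -0.63 for Prkg2 and from -0.53 to -0.19 for Gucy2c, the limits coming from leaving out colon replicate 1 or 2, and from 1.16 to 1.41 for Guca2a.

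**Figure D3:**
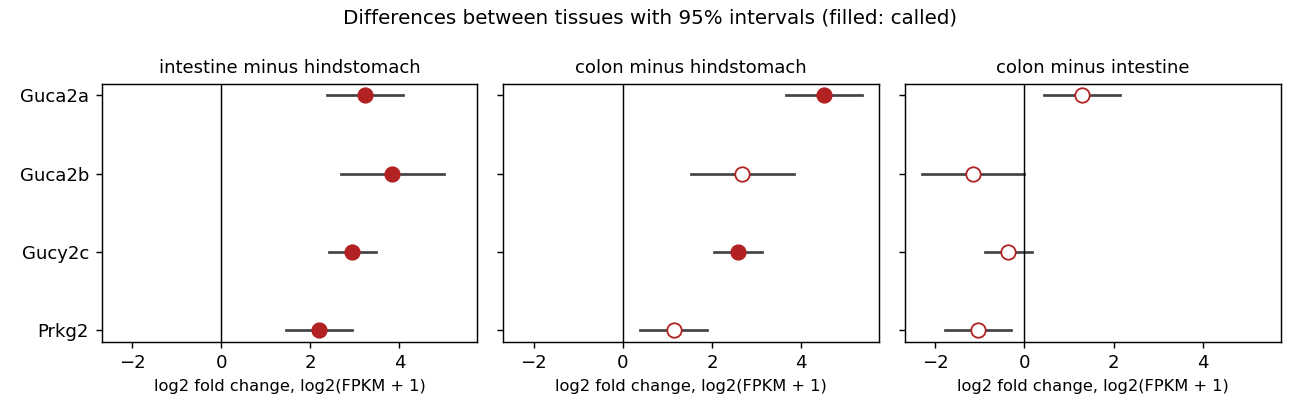
Log2 fold changes on the log2(FPKM + 1) scale for the 4 genes in 3 comparisons, with 95% intervals and filled points for called genes. All 4 are called between intestine and hindstomach, Guca2a and Gucy2c between colon and hindstomach, and none between colon and intestine, where Guca2a (1.29) points the other way from Guca2b (-1.16).

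Colon replicate 2, the library with the lower Guca2b and Prkg2 values, also had a smaller sum of enterocyte markers and a larger sum of mesenchyme markers than colon replicate 1. Its 12 enterocyte markers summed to 5343 FPKM against 16841 in colon replicate 1, and its 13 mesenchyme and smooth muscle markers to 1848 against 841. The median log2(FPKM + 1) of the enterocyte markers was 6.93 against 8.27. Single enterocyte markers differed unevenly: Fabp1 stood at 1502 against 4773 FPKM, but Enpep at 84.4 against 96.1. The sums over 10 goblet cell markers were 3787 FPKM in colon replicate 2 and 3016 in colon replicate 1, above the 1169 and 1109 of the intestine. Single goblet cell markers were uneven too: Atoh1 stood at 28.3 against 17.4 FPKM, but Zg16 at 24.2 against 59.8. Zg16 was not above its intestine values of 57.1 and 61.1 FPKM. Guca2a was at 222 and 223 FPKM in colon replicates 1 and 2. The part of these markers in the differences of Guca2b and Prkg2 was not tested.

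The balance of the 2 ligands was read within each library, where it does not depend on library scaling. Guanylin made up 69.2% and 83.9% of the summed FPKM of both ligand genes in the colon, and 47.8% and 29.5% in the intestine. Both colon libraries were above both intestine libraries. On the log2 scale the ratio of Guca2a to Guca2b, each with 1 FPKM added, was 1.76 ± 0.84 in the colon and -0.69 ± 0.80 in the intestine (mean ± SD, n = 2), a difference of 2.45. An exact two-sided permutation test over the 4 libraries gave p = 0.333, the smallest that 2 against 2 can give, so the test could not call any difference.

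In the hindstomach guanylin made up 63.2% and 33.8% of both ligands in replicates 1 and 2. The log2 ratio of Guca2a to Guca2b was higher in the library of the upper depth class in 3 tissues, at 0.71 against -0.86 in the hindstomach, -0.13 against -1.25 in the intestine and 2.35 against 1.16 in the colon. Since each depth estimate is uncertain by a factor of 2, it is not established that this library was the deeper of its pair. It also held the smaller sum of enterocyte markers in these 3 tissues, but single markers went both ways. In hindstomach replicates 1 and 2 Apoa4 stood at 1105 and 1544 FPKM but Cdh17 at 41.7 and 26.4. In intestine replicates 1 and 2 Apoa4 stood at 6997 and 10754 FPKM but Enpep at 110 and 94.1. The part of depth and of enterocyte content in the ratio was not tested. In the forestomach both ligands were under 0.3 FPKM and the ratio carries little weight.

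**Figure D4:**
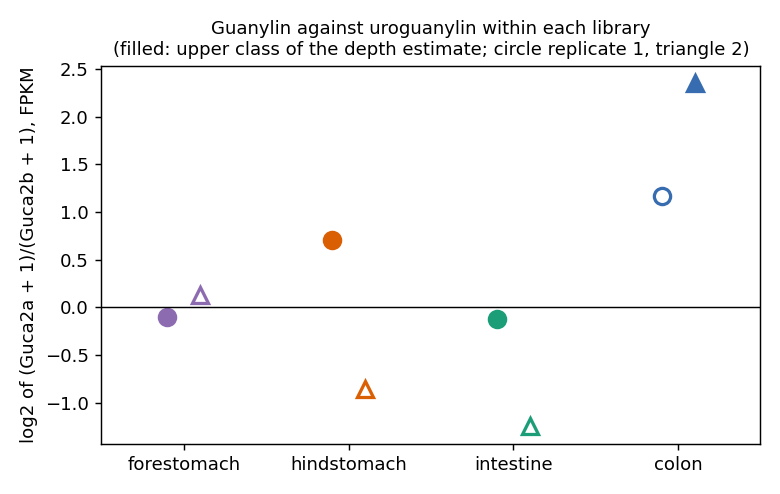
The log2 ratio of Guca2a to Guca2b, each with 1 FPKM added, in every library, with filled symbols for the 4 libraries in the upper class of the depth estimate, circles for replicate 1 and triangles for replicate 2. The colon libraries (1.16 and 2.35) lie above the intestine libraries (-0.13 and -1.25), and in hindstomach, intestine and colon the filled symbol is the higher one.

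Summed over both ligands, expression was less uneven along the bowel than that of either gene: 321 and 266 FPKM in the colon and 207 and 281 in the intestine, with overlap between the tissues. The hindstomach held 20.8 and 17.0 FPKM of both ligands together. Ligand over receptor, as a ratio of FPKM, was 2.35 and 2.47 in the colon, 1.33 and 1.8 in the intestine and 0.918 and 1.02 in the hindstomach, which did not overlap between tissues. Receptor over kinase was 3.23 and 4.6 in the colon, 2.49 and 2.23 in the intestine and 1.5 and 1.33 in the hindstomach.

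Both libraries labelled forestomach were the lowest for each gene, the one led by squamous markers and the one led by gastric glandular markers alike. All 4 genes were called higher in the intestine than there (11.3% of all genes were), by 6.95 ± 0.22 for Gucy2c, 6.91 ± 0.47 for Guca2b, 6.22 ± 0.35 for Guca2a and 5.87 ± 0.31 for Prkg2 on the log2 scale (limma adjusted p = 9.08e-05, 6.48e-04, 3.52e-04 and 2.85e-04). In the colon all 4 were called higher too (9.2% of all genes), led by Guca2a at 7.50 ± 0.35 (adjusted p = 2.14e-04). In the hindstomach all 4 were called higher than in the forestomach (4.26% of all genes), led by Gucy2c at 4.01 ± 0.22 (adjusted p = 7.00e-04). Leaving that first forestomach library out, all 4 stayed called in each of these 3 comparisons, where 16.6%, 19.1% and 14.3% of genes were called higher. It held 1306 FPKM of enterocyte markers, most of it Apoa1 at 1168, but Guca2a, Guca2b, Gucy2c and Prkg2 were each below 0.35 FPKM in it. Between hindstomach and forestomach, Guca2b lost its call without either hindstomach or either intestine library, and Prkg2 without hindstomach replicate 1.

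With both bowel tissues set against both stomach tissues, all 4 genes were called higher in the bowel, as were 7.25% of genes. Guca2a rose by 5.37 ± 0.25, Guca2b by 4.80 ± 0.33, Gucy2c by 4.77 ± 0.15 and Prkg2 by 3.5 ± 0.22 (limma adjusted p = 2.40e-04, 7.09e-04, 1.67e-04 and 5.60e-04). Each call stayed with any 1 of the 8 libraries left out (adjusted p at most 0.00332, 0.0082, 0.00262 and 0.00711 over all alternatives).

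Other listed sources of cyclic GMP were mostly below 1 FPKM. Of 19 listed genes for natriuretic peptides, their receptors, other guanylate cyclases and nitric oxide synthases, 15 are in the table and 5 passed the filter. Of those 5, 1 was called higher in the intestine than in the hindstomach, with none called lower there and none called between colon and hindstomach or between colon and intestine (median log2 fold changes of -0.12, 0.71 and 0.86 against -0.25, 0.02 and 0.23 over all genes). At an unadjusted p under 0.05 there were 1, 2 and 1. Of all genes tested 2.55%, 1.07% and 0.38% were called higher and 2.47%, 0.434% and 0% lower in these 3 comparisons. The 1 called gene was Gucy2d, in the mouse the guanylate cyclase of certain olfactory neurons that is also known to respond to these peptides. It stood at 1.47 and 1.39 FPKM in the intestine, 0.987 and 0.516 in the colon, 0.0595 and 0.0661 in the hindstomach and 0.0043 and 0.232 in the forestomach (adjusted p = 0.0434 for intestine against hindstomach). Only the intestine libraries reached 1 FPKM, so Gucy2d passed the filter through the group in which it was called, and its call carries little weight. Gucy2c stood at 155 and 157 FPKM in the same intestine libraries. In colon replicate 2, which held the larger mesenchyme sum of the colon pair, 6 of the 15 genes reached 1 FPKM, led by the natriuretic peptide receptor genes Npr3 at 5.98 and Npr2 at 5.26, against 1.70 and 1.91 in colon replicate 1, and the part of mesenchyme content in this was not tested. The genes of the soluble cyclase subunits alpha 1 and beta 1 were listed but not found under the symbols searched, so their levels are not known here.

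Among 27 listed genes for cyclic GMP breakdown, export and other effectors, 25 are in the table and 13 passed the filter. In the 3 comparisons that follow, 2.55%, 1.07% and 0.38% of all genes were called higher and 2.47%, 0.434% and 0% lower. All shares of genes called higher rose without forestomach replicate 1. Between intestine and hindstomach 1 was called higher and 1 lower, between colon and hindstomach 1 higher, and between colon and intestine none (median log2 fold changes of -0.15, 0.83 and 0.67; 3, 5 and 2 genes at an unadjusted p under 0.05). Leaving out forestomach replicate 1, 11 of the listed genes passed the filter and the calls were 2 higher and 1 lower, 3 higher, and 1 higher. The shares over all genes, higher and lower, were then 7.42% and 9.96%, 4.49% and 3.1%, and 2.5% and 0.04%. The phosphodiesterase gene Pde3a stood at 7.41 and 6.02 FPKM in the intestine, 5.83 and 4.40 in the colon and 1.07 and 0.692 in the hindstomach (limma adjusted p = 0.0147 and 0.0315 against the hindstomach). Abcc4, which encodes an exporter of cyclic nucleotides, had a log2 fold change of -1.56 ± 0.21 in the intestine (adjusted p = 0.0194), at 1.02 and 0.802 FPKM against 4.98 and 4.29. Pde9a, a phosphodiesterase selective for cyclic GMP, was the phosphodiesterase at 10 FPKM or more in every bowel library: 29.8 and 33.0 in the intestine and 43.6 and 38.3 in the colon, against 8.11 and 7.94 in the hindstomach and 1.48 and 6.28 in the forestomach. It was not called in these 3 comparisons. Vasp, a cytoskeletal substrate of cyclic GMP kinases, stood between 34.8 and 92.2 FPKM in all 8 libraries.

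The sister kinase gene Prkg1, which encodes the cyclic GMP kinase known from smooth muscle, did not share the tissue order of Prkg2. It was highest at 2.49 FPKM in colon replicate 2 and at 1.11 in the library labelled forestomach replicate 1, the 2 libraries with the largest sums of mesenchyme markers (1848 and 4595 FPKM). In the intestine it stood at 0.519 and 0.0899 FPKM, where Prkg2 was at 62.4 and 70.3. The part of mesenchyme content in the Prkg1 level was not tested.

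The transport proteins and scaffolds through which the route is known to act were mixed. Of all genes tested, 2.55% were called higher and 2.47% lower in the intestine than in the hindstomach. The shares were 1.07% and 0.434% for colon against hindstomach and 0.38% and 0% for colon against intestine. All shares of genes called higher rose without forestomach replicate 1. Of 22 listed genes, all tested, 3 were called higher and 2 lower in the intestine than in the hindstomach (median log2 fold change -0.09), 3 higher and 0 lower in the colon than in the hindstomach (0.41), and 1 higher and 0 lower in the colon than in the intestine (0.05). Leaving out forestomach replicate 1 turned these counts into 6 and 6, 5 and 5, and 4 and 0. The shares over all genes, higher and lower, were then 7.42% and 9.96%, 4.49% and 3.1%, and 2.5% and 0.04%. Cftr, the chloride channel gene, stood at 16.6 and 16.7 FPKM in the intestine, 19.2 and 14.6 in the colon, 14.2 and 9.14 in the hindstomach and 0.198 and 3.87 in the forestomach. It was not called among hindstomach, intestine and colon, with hindstomach replicate 1 close to colon replicate 2.

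Of the PDZ scaffold genes Pdzd3, Pdzk1 and Slc9a3r1 rose in the intestine, and Slc9a3r2 (NHERF2), named outside the rule for named genes, was at 3.32 and 1.04 FPKM in the intestine and at 5.04 and 5.72 in the hindstomach, with no call. Pdzd3, whose product binds guanylate cyclase C, stood at 23.9 and 33.4 FPKM in the intestine, 26.1 and 15.5 in the colon and 3.5 and 4.44 in the hindstomach, and was called higher in both bowel tissues (limma adjusted p = 0.0153 and 0.0371). Pdzk1 stood at 68.0 and 95.4 FPKM in the intestine against 9.39 and 10.4 in the hindstomach (adjusted p = 0.0179), with 48.2 and 22.9 in the colon. Slc9a3r1, which encodes the scaffold NHERF1, stood at 330 and 399 FPKM in the intestine, 256 and 161 in the colon and 100.1 and 99.5 in the hindstomach (adjusted p = 0.0288 for the intestine). Slc9a3, the gene of the exchanger NHE3, is named outside the rule for named genes because the route acts on it: it stood at 21.9 and 35.8 FPKM in the intestine, 18.6 and 3.72 in colon replicates 1 and 2 and 1.86 and 3.87 in the hindstomach, with no call among these tissues. Colon replicate 2 was low in Slc9a3, as in Guca2b and Prkg2.

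The 1 gene of the list called between colon and intestine was Best2. This bestrophin anion channel gene of colonic goblet cells stood at 12.6 and 19.0 FPKM in the colon and below 0.3 in the other 6 libraries (log2 fold change 4.01 ± 0.27 against the intestine, limma adjusted p = 0.00886). Best2 passed the filter on low values through the colon libraries alone, the group in which it was called, so its p-value is not independent of that choice. Kcne3, a subunit gene of the basolateral potassium channel that supports chloride secretion, stood at 22.5 and 29.3 FPKM in the colon, 14.7 and 14.3 in the intestine and 8.56 and 6.34 in the hindstomach (adjusted p = 0.0315 for colon against hindstomach). Ano1, a calcium-activated chloride channel gene, fell in the intestine, at 0.947 and 0.227 FPKM against 22.4 and 27.8 in the hindstomach (adjusted p = 0.0108), and stood at 7.72 and 11.6 in the colon. Prkar2b, a regulatory subunit gene of the cyclic AMP kinase, also fell in the intestine (log2 fold change -2.08 ± 0.32, adjusted p = 0.0253). The sodium, potassium and chloride cotransporter gene Slc12a2, the membrane linker gene Ezr and the cyclic AMP kinase genes Prkaca and Prkar2a were above 10 FPKM in every bowel library and were not called in the 3 comparisons.

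**Figure D5:**
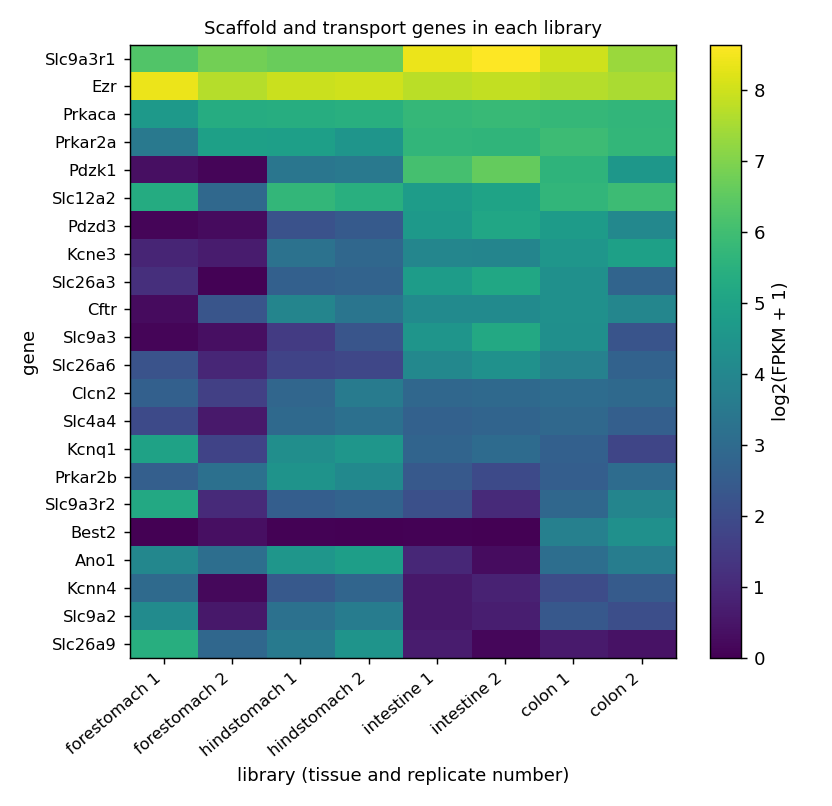
Heat map of log2(FPKM + 1) for 22 scaffold and transport genes (rows, ordered by their bowel mean) in the 8 libraries (columns). Pdzk1 and Pdzd3 are brighter in intestine and colon than in the stomach, Best2 is bright in the colon libraries only, and Ano1 is dark in the intestine.

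Intestinal transcription factors followed the bowel order in part. In the 3 comparisons that follow, 2.55%, 1.07% and 0.38% of all genes were called higher and 2.47%, 0.434% and 0% lower. All shares of genes called higher rose without forestomach replicate 1. Of 12 listed, 3 were called higher and 1 lower in the intestine than in the hindstomach, 2 higher and 0 lower in the colon than in the hindstomach, and none between colon and intestine (median log2 fold changes 0.79, 0.59 and -0.41; 5, 3 and 2 at an unadjusted p under 0.05). Leaving out forestomach replicate 1 gave 6 and 1, 4 and 0, and 1 and 0, where 7.42% and 9.96%, 4.49% and 3.1%, and 2.5% and 0.04% of all genes were called higher and lower. Cdx2 stood at 133 and 135 FPKM in the intestine, 112 and 91.1 in the colon, 24.4 and 16.55 in the hindstomach and 0.0273 and 0 in the forestomach (limma adjusted p = 0.00833 for intestine and 0.0118 for colon against hindstomach). Cdx1 was highest in the colon, at 138 and 134 FPKM against 79.6 and 84.8 in the intestine, 13.8 and 8.99 in the hindstomach and 0.0302 and 0 in the forestomach (adjusted p = 0.00701 and 0.00393 against the hindstomach). Isx, a homeobox factor gene of the intestine, was called higher in the intestine (75.0 and 78.4 FPKM against 14.8 and 8.93, adjusted p = 0.0187), and Klf4 was called lower there (13.7 and 11.9 against 41.3 and 61.2, adjusted p = 0.0288). Hnf4a, Hnf4g, Klf5 and Gata6 were above 10 FPKM in every bowel library without a call in these comparisons.

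The genes whose profile over the 8 libraries was most like each of the 4 were ranked by Pearson's r of log2(FPKM + 1) among genes reaching 5 FPKM in 2 libraries or more. The libraries fall into 4 tissues, so these values describe tissue patterns and carry no test. For Gucy2c the first gene was Cdx2 (r = 0.999), followed by Clrn3, the harmonin gene Ush1c, Reg4 and the brush border protease gene Mep1a (0.998 each). For Guca2b they were the inositol transporter gene Slc5a11 (0.998), Cyp2c67 (0.998), the ubiquitin ligase gene Rnf186 (0.998), Hyal5 (0.997) and Slc17a4 (0.997). For Prkg2 they were Slc3a1 (0.999) and Slc7a9 (0.998), which encode the 2 chains of the cystine transporter, Creb3l3 (0.998), the zinc transporter gene Slc39a5 (0.997) and Tm4sf20 (0.997). For Guca2a the fits were a little looser: Ugt2b36 (0.996), the kinesin gene Kif3b (0.993), Cdx1 (0.992) and Tm9sf2 (0.989). Pearson's r takes no account of size, and Kif3b ran only from 5.31 to 15.7 FPKM.

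By Pearson's r the 4 genes were not each other's nearest profiles. Among 8875 other genes Prkg2 came 71st for Gucy2c (r = 0.985), Guca2b 120th (0.978) and Guca2a 262nd (0.965), and without forestomach replicate 1 these places were 197, 296 and 587. The ligands, though neighbors on the chromosome, had r = 0.931, which placed Guca2b 183rd for Guca2a and Guca2a 700th for Guca2b, or 420th and 1225th without that library (r = 0.902). Prkg2 and Guca2a were the least alike, with r = 0.907, and 0.865 without it. By Spearman's rho, which uses only the order of the libraries, Gucy2c and Prkg2 matched fully (rho = 1). For Gucy2c 108 genes reached that value, so rho does not rank them. Guca2b had rho = 0.976 with both Gucy2c and Prkg2, and Guca2a had 0.714 with Guca2b and 0.738 with Gucy2c and Prkg2.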

How the data were processed

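Poly(A) RNA of 8 libraries was measured, 2 per tissue, grouped by their titles. The authors deposited FPKM values, fragments normalized by transcript length and library size, in 1 table (0 duplicated symbols). STAR 2.4.2a and mm10 (GRCm38) are named per the submitters' processing notes. The annotation, like the strand setting and the FPKM program, was not given in the sources used here. The 4 table columns that match no listed sample were not used.

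Values were analyzed as log2(FPKM + 1) with limma 3.58.1 in R 4.3.3: 4 tissue means, variances moderated along a trend with mean level, 4 residual degrees of freedom, Benjamini-Hochberg adjustment over 12894 genes per comparison, 7 comparisons. Ratios, ranks and exact tests used Python 3.11.15 and scipy 1.17.1. Absolute depth is unknown, so no counting intervals were derived. The fit was checked on simulated data. Genes were named as follows: the 4 members, of each list up to 5 called genes with the largest change and those at 10 FPKM or more in every bowel library, and the 5 genes most like each member, of which 1 is not reported here. Members, lists and tests were chosen with earlier results of these data known. The alternatives changed the pseudocount, filter, scaling, variance model or samples fitted, added the replicate number as a block, or left out 1 library.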

Additional observations from a re-analysis of the deposited data

How the results depend on the processing

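No fold change of the 4 genes in the 7 comparisons turned its direction under any alternative run. A few calls moved in settings that left out no library of the tissues compared. Between intestine and hindstomach Prkg2 lost its call with a pseudocount of 0.1 (2.26, adjusted p = 0.0654). Between colon and hindstomach Guca2b gained one with every library at the same summed FPKM (2.80, adjusted p = 0.0441) and with only the tissues compared (2.68, adjusted p = 0.0239). Between hindstomach and forestomach Guca2b lost its call with a pseudocount of 5 (1.46), with only the tissues compared (3.07) and with the replicate block (3.07, adjusted p = 0.0564), and Guca2a with only the tissues compared (2.99), leaving 2 of 4 called. The replicate block changed no other call of the 4 genes, and the numbers do not pair the libraries: correlations of replicate differences between tissues ran from -0.578 to 0.27. The cause of these moves was not tested.

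With 1 library left out, where the lone library of a tissue is assumed to vary like the others, log2 fold changes between intestine and hindstomach ran from 2.70 to 3.76 for Guca2a, 3.40 to 4.28 for Guca2b, 2.73 to 3.16 for Gucy2c and 2.06 to 2.31 for Prkg2, with 0 to 4 of 4 called. Between colon and hindstomach they ran from 3.99 to 5.05 for Guca2a, 2.09 to 3.28 for Guca2b, 2.37 to 2.80 for Gucy2c and 0.73 to 1.55 for Prkg2, with 0 to 3 called. Between hindstomach and forestomach they ran from 2.82 to 3.32 for Guca2b and 3.53 to 3.83 for Prkg2, with 2 to 4 called. The ligand balance between colon and intestine ran from 1.85 to 3.04. Adding depth class (2 levels) to the fit, an alternative added once the data had been seen, changed no call of the 4 genes.

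Counts over all genes moved more: intestine against hindstomach gave 648 calls, 0 to 2173 with 1 library left out, 237 with the block, 392 with no filter and 2323 with only the tissues compared. Colon against hindstomach gave 194 (0 to 949, 99 with the block, 103 with a pseudocount of 0.1, 835 with only the tissues compared) and colon against intestine 49 (0 to 317, 9 with the block, 12 at 5 FPKM or more, 22 with a pseudocount of 0.1, 23 with the depth term, 93 with only the tissues compared). Median-of-ratios scaling moved the median of all genes from -0.25 to 0 between intestine and hindstomach and from 0.23 to -0.08 between colon and intestine, where Gucy2c moved from -0.36 to -0.74 and Guca2a from 1.29 to 0.90. Without forestomach replicate 1, 3, 3, 2 and 0 of the 5 genes most like Guca2a, Guca2b, Gucy2c and Prkg2 stayed among the first 5. Values under 1 FPKM, such as all in the forestomach, rest on few fragments.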

Other observations

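The ratio of Gucy2c to the intestinal cadherin gene Cdh17 was chosen after the values were seen. It was 0.645 and 0.653 in the intestine, 0.705 and 0.758 in the colon and 0.543 and 0.631 in the hindstomach. These values lay in a narrow range but did not overlap between tissues. Against Vil1, another enterocyte marker, Gucy2c was less level, at 0.486 and 0.419 in the intestine, 0.491 and 0.636 in the colon and 0.271 and 0.186 in the hindstomach. Against Epcam, a gene of all these epithelia, Gucy2c stood at 0.278 in both intestine libraries, at 0.246 and 0.211 in the colon and at 0.053 and 0.0445 in the hindstomach. Prkg2 against Epcam stood at 0.111 and 0.125 in the intestine, 0.076 and 0.0458 in the colon and 0.0353 and 0.0335 in the hindstomach. Foxj3, the next annotated gene before Guca2a on chromosome 4, stood between 2.76 and 6.92 FPKM in all 8 libraries, a range far narrower than that of the ligand genes beside it.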
